A study of Homo sapiens with 12 samples.

Results

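ELF3, a transcription factor of the ETS family that is characteristic of epithelial cells, was examined with the other genes of the ELF and ESE group, EHF, ELF5, ELF1, ELF2 and ELF4, in A375 cells, an established human melanoma line with mutant BRAF. These 6 members were taken by name from the 58347 genes of the count files. ELF3 was chosen by its large rise under both drugs in these same counts, so its values are a description and no test was made of them; the other members were taken by family name alone. RNA was sequenced from 4 groups of 3 samples: cells given the DMSO vehicle, tretinoin (a retinoid that activates the retinoic acid receptors), vemurafenib (an inhibitor of mutant BRAF) or the vemurafenib + tretinoin combination. All groups were harvested after 8 h, and 5 µM is listed as the dose of every group, the vehicle included. The cells were of 1 line, grown in serum-containing medium and treated in triplicate dishes. The sources used here do not say that the replicates came from separate cultures, so p-values measure only the spread between these samples, which may be technical.

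ETS factors share a DNA-binding domain that recognises sites with the core GGAA, and ERK, the kinase at the end of the BRAF pathway, acts on several of them. Within the family, ELF3 (also called ESE-1), EHF (ESE-3) and ELF5 (ESE-2) are found chiefly in epithelia, where they take part in differentiation, whereas ELF1, ELF2 and ELF4 are expressed more widely and are best known from blood cells. The melanocyte, from which melanoma arises, is not an epithelial cell.

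The stretches of promoter shown here are those of the 3 members with the largest differences from DMSO. They come from RefSeq (GRCh38.p14), read 5′ to 3′ on the strand of the gene, and capitals mark the TATA box letters TATAAA, the retinoic acid receptor half-site letters AGGTCA and the ETS core letters GGAAG. The ELF3 stretch lies at chr1:202010541-202010570 on the plus strand, ELF1 at chr13:41061388-41061417 on the minus strand and EHF at chr11:34624007-34624256 on the plus strand. The ELF3 and ELF1 stretches lie in the UTR of a longer annotated transcript of the same gene, and only the bases around the motifs are shown.
ELF3: caggggacacacTATAAAgccctgagctca
ELF1: ggTATAAAggggttgAGGTCAccgGGAAGg
EHF: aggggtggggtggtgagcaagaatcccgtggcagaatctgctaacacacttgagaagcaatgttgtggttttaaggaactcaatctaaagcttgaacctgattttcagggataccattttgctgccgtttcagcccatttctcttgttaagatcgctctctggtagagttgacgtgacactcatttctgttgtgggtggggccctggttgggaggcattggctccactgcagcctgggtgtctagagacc

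All 6 members matched the RefSeq promoter table, with 12 start sites between them. The 250 bases before each start were searched on both strands for AGGTCA, the ETS core GGAAG, the AP-1 site TGACTCA and TATAAA, whose letters do not overlap one another as searched. TATAAA began 34 bases before the ELF3 start, and none of the other 3 motifs was found in that window. ELF1 had TATAAA 29 bases, AGGTCA 16 bases and GGAAG 7 bases before its most upstream start, with a further GGAAG on the other strand 212 bases before it, and none of the 4 motifs was in the EHF window shown. Over 35116 promoter windows, AGGTCA was present in 12.1%, GGAAG in 65.1%, TGACTCA in 4.2% and TATAAA in 10.7%. A match is a string of letters and not a measured site.

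The total count per sample ranged from 13510235 to 21534377. A filter on low counts, applied by group, left 16740 genes, among them ELF3, EHF, ELF1, ELF2 and ELF4 but not ELF5. Tretinoin replicate 1 stood apart from its group: the chi-square per degree of freedom over genes was 19.13 and 21.82 against the other tretinoin replicates, compared with 2.56 to 8.38 for all other pairs within a group, so results that turn on it are given without it as well. The drug checks moved. With tretinoin alone 5 of 9 retinoid response genes rose, where 3.48% of all genes did. DHRS3, a retinaldehyde reductase, was among them (log2 fold change 2.91 ± 0.09, SE). All 12 ERK output genes fell with vemurafenib, where 26.3% of all genes did. Among them were DUSP6 (-6.07 ± 0.13) and SPRY4 (-6.55 ± 0.16), feedback inhibitors of ERK signalling. RARB, a retinoic acid receptor gene, did not pass with tretinoin alone (0.82 ± 0.28, adjusted p = 0.1 by edgeR's quasi-likelihood test). It rose with vemurafenib alone (2.80 ± 0.23), as did DHRS3 (1.74 ± 0.09), and RARB was higher in the combination than with vemurafenib by 1.22 ± 0.15. The retinoic acid hydroxylase CYP26A1 was at 3 to 20 counts in every sample and did not pass with tretinoin alone (adjusted p = 0.63). Scaling the libraries by total counts in place of TMM (edgeR's trimmed mean of M values) moved the median of all genes by 0.19 with vemurafenib and 0.16 with the combination, both against DMSO, and by -0.10 for the difference between tretinoin effects. The share of called genes that were higher went from 61.3% to 81.3% with tretinoin, from 50.1% to 71.4% with vemurafenib, from 50.5% to 68.2% with the combination, all against DMSO, from 49% to 60.7% with the combination against tretinoin, and from 47.4% to 21.4% for that difference.

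Markers of the labelled cell were mixed. MITF, the melanocyte master regulator, had the highest level of its list, and 4 of 8 melanocyte markers passed the count filter, but SOX10 was at 0 counts in all 12 samples and TYR had 1 count in all. The summed level of the melanocyte list was 26.3 to 31.1 CPM (counts scaled to library size by TMM) in DMSO, 24.3 to 28.9 in tretinoin, 44.3 to 46 in vemurafenib and 39.8 to 41.3 in the combination. Of the 4 tested markers 2 rose with vemurafenib and 2 with the combination, where 26.4% and 27.1% of all genes rose. Both times these were MITF and TYRP1. TYRP1 had 5 to 8 counts in DMSO and 34 to 45 in vemurafenib. It passed the count filter through vemurafenib and combination samples, so its calls are no separate support for its rise. Of 6 blood cell markers only PTPRC passed the filter, and it rose in all 3 drug groups against DMSO, from 1.11 ± 0.561 CPM (SD, n = 3) to 3.03 ± 0.891 with tretinoin, 2.8 ± 0.449 with vemurafenib and 3.74 ± 0.744 with the combination. The other blood markers had at most 10 counts in any sample, CD68 at most 2, and the list summed to 1.03 to 3.11 CPM in DMSO and to 3.81 to 5.28 in the combination; their part in the results on the family was not tested. In bulk RNA, a gene carried by fewer cells cannot be told apart from a gene with less RNA per cell.

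ELF3 was nearly silent in vehicle-treated cells, was detected with either drug alone and was most abundant with both. The DMSO samples had 0, 2 and 0 ELF3 counts. With tretinoin the counts were 16, 20 and 20, and with vemurafenib 42, 33 and 35. In the combination they were 364, 395 and 336. None of the 4 groups overlapped another, in counts or after scaling. As ELF3 was picked for its rise in these counts, this separation is a description and no support for the rise. On the CPM scale, ELF3 stood at 0.045 ± 0.078 in DMSO, 1.14 ± 0.042 in tretinoin, 1.96 ± 0.323 in vemurafenib and 17.9 ± 2.44 in the combination (mean ± SD, n = 3).

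**Figure D1:**
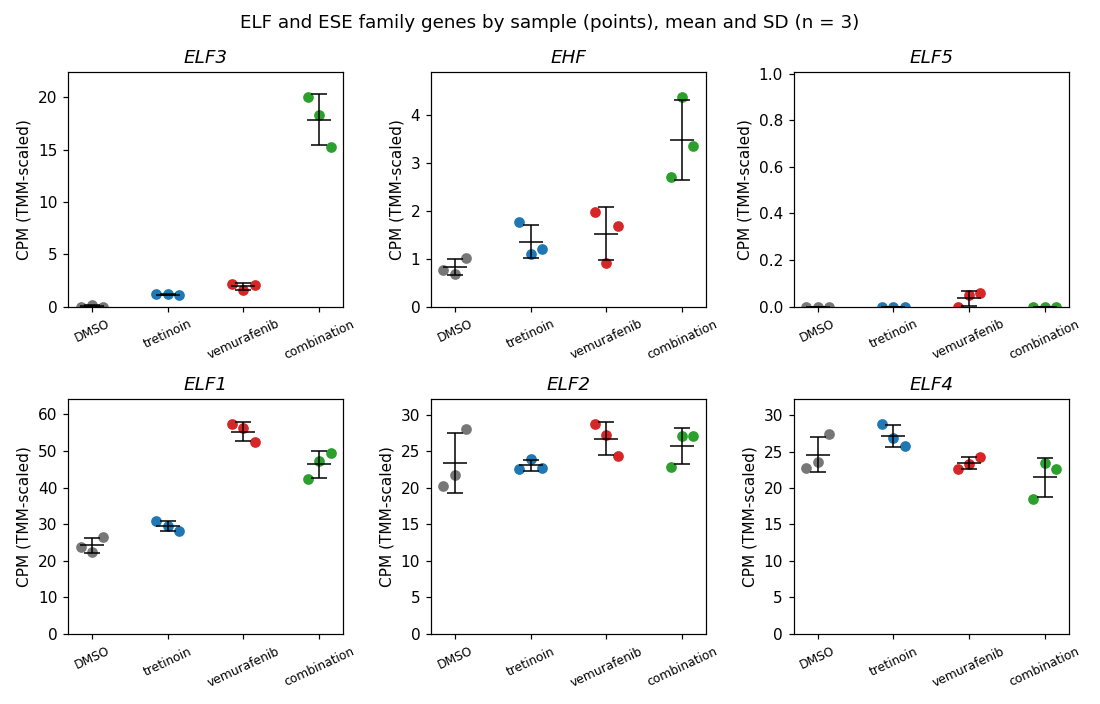
Each panel plots 1 family gene, with TMM-scaled CPM on an axis from 0 and the 4 treatment groups side by side; points are samples, and the bar is the mean ± SD (n = 3). ELF3 reached 15.2 to 20 CPM in the combination and 1.59 to 2.18 CPM in vemurafenib, whereas ELF2 and ELF4 stayed within a similar range in every group.

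Because the DMSO group held only 2 ELF3 counts, its ratios to DMSO are given with exact 95% counting intervals, which cover counting error only. ELF3 was 28.1 times higher in tretinoin than in DMSO (7.42 to 238), 47.8 times higher in vemurafenib (12.9 to 400) and 437 times higher in the combination (121 to 3610). Both DMSO counts came from DMSO replicate 2. Without that library DMSO was at 0, and with a floor of 3 counts over the remaining DMSO samples ELF3 was at least 13.1-fold higher in tretinoin, at least 22.3-fold higher in vemurafenib and at least 204-fold higher in the combination. The comparisons among the drug groups rest on more counts: the combination was 9.13 times the vemurafenib level (7.5 to 11.2) and 15.5 times the tretinoin level (11.9 to 20.7). In the model of all samples the log2 fold change of the combination was 3.19 ± 0.18 (SE) against vemurafenib, and it lay between 3.05 and 3.29 when each sample was left out in turn.

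With both drugs, ELF3 exceeded the sum of its single-drug levels on the linear scale. The single drugs, added with the DMSO level taken off once, gave 3.06 CPM, and the combination mean of 17.9 CPM was 5.85 times that sum. On the log2 scale, the change with tretinoin added to vemurafenib minus the change with tretinoin alone was -1.40 ± 0.79 (SE), a value that depends on the 2 DMSO counts and went from -4.21 to -0.79 over the fits with 1 sample left out.

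EHF, which like ELF3 is found chiefly in epithelia, was highest in the combination and was detected in all 12 samples. Its counts were 12, 10 and 19 in DMSO, 24, 19 and 22 in tretinoin, 38, 19 and 28 in vemurafenib and 49, 94 and 74 in the combination. The combination samples lay above those of every other group, while the tretinoin and vemurafenib samples overlapped each other. After scaling, EHF went from 0.817 ± 0.168 CPM in DMSO to 3.47 ± 0.842 CPM in the combination (SD, n = 3), a log2 fold change of 2.06 ± 0.31 (SE) with an adjusted p of 2.1e-05 by edgeR's quasi-likelihood test. The combination was also higher than vemurafenib by 1.21 ± 0.27 (adjusted p = 0.012) and than tretinoin by 1.38 ± 0.28 (adjusted p = 0.00055). The call against vemurafenib was lost without vemurafenib replicate 2 (0.92, adjusted p = 0.095) and without combination replicate 2 (adjusted p = 0.097). Vemurafenib alone passed narrowly against DMSO (0.86 ± 0.34, adjusted p = 0.045), and this call was lost with DESeq2 (adjusted p = 0.076) and without any of DMSO replicates 1, 2 or 3, vemurafenib replicates 1 or 3, or combination replicate 3, where the value ranged from 0.61 to 1.04. The change with tretinoin alone did not pass (0.68 ± 0.36, adjusted p = 0.27; 0.47 without tretinoin replicate 1). EHF in the combination was 1.68 times the sum of the single-drug levels, and the difference between the tretinoin effects with and without vemurafenib was 0.52 ± 0.46 on the log2 scale (adjusted p = 0.6).

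ELF5, which in the mammary gland governs the secretory lineage, was not detectable at this depth. It had 1 count in vemurafenib replicate 2, 1 in vemurafenib replicate 3 and 0 in the other samples. It did not pass the filter and was not tested, and a count of 0 in a group allows up to 3.

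ELF1, a widely expressed factor that activates genes of lymphoid cells, rose with vemurafenib and with the combination. Its level was 23.8, 22.5 and 26.4 CPM in DMSO, 30.9, 29.5 and 28.2 in tretinoin, 57.3, 56.2 and 52.3 in vemurafenib and 42.2, 47.2 and 49.6 in the combination. The 4 groups did not overlap, and vemurafenib alone was the highest. ELF1 rose by 1.19 ± 0.08 (log2, SE) with vemurafenib (adjusted p = 2.7e-09) and by 0.93 ± 0.08 with the combination (adjusted p = 5.4e-08), both against DMSO, and the combination exceeded tretinoin by 0.65 ± 0.08 (adjusted p = 4.1e-06). Tretinoin alone gave 0.28 ± 0.09 (adjusted p = 0.066), which passed without DMSO replicate 3 (0.35, adjusted p = 0.049). The lower level in the combination than in vemurafenib did not pass (-0.25 ± 0.08, adjusted p = 0.09), but passed without tretinoin replicate 1 (-0.25, adjusted p = 0.034) and with only these groups fitted (adjusted p = 0.029). The change of ELF1 with tretinoin was lower in the presence of vemurafenib than without it (difference -0.54 ± 0.12, adjusted p = 0.04). That call was lost with DMSO replicate 1 or 2, tretinoin replicate 2, vemurafenib replicate 1 or 2, or combination replicate 1 or 2 left out, at values from -0.55 to -0.47. The combination mean of 46.3 CPM was 0.765 times the sum of the single-drug levels.

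ELF2 and ELF4, the widely expressed relatives of ELF1, moved little. ELF2 was at 20.2, 21.8 and 28 CPM in DMSO, 22.5, 23.9 and 22.7 in tretinoin, 28.7, 27.2 and 24.3 in vemurafenib and 22.9, 27.1 and 27.1 in the combination. DMSO replicate 3 was higher than its group, and the groups overlapped. ELF2 passed in none of the 6 comparisons with TMM scaling, the largest being 0.19 ± 0.11 with vemurafenib (adjusted p = 0.16). With total-count scaling it passed with vemurafenib (0.39, adjusted p = 0.0084), as it did without DMSO replicate 3 (0.34, adjusted p = 0.014), and with the combination (0.30 and 0.29). ELF4, known for a role in interferon responses and natural killer cells, was at 22.8, 23.6 and 27.4 CPM in DMSO, 28.7, 26.8 and 25.7 in tretinoin, 22.6, 23.3 and 24.2 in vemurafenib and 18.4, 23.4 and 22.6 in the combination. Its combination samples lay below its tretinoin samples (-0.33 ± 0.10, adjusted p = 0.011). The call was lost with total-count scaling (-0.24, adjusted p = 0.065) and without combination replicate 1 (-0.23, adjusted p = 0.064), and the ELF4 change with vemurafenib (-0.08 ± 0.10, adjusted p = 0.54) changed sign with total-count scaling.

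**Figure D2:**
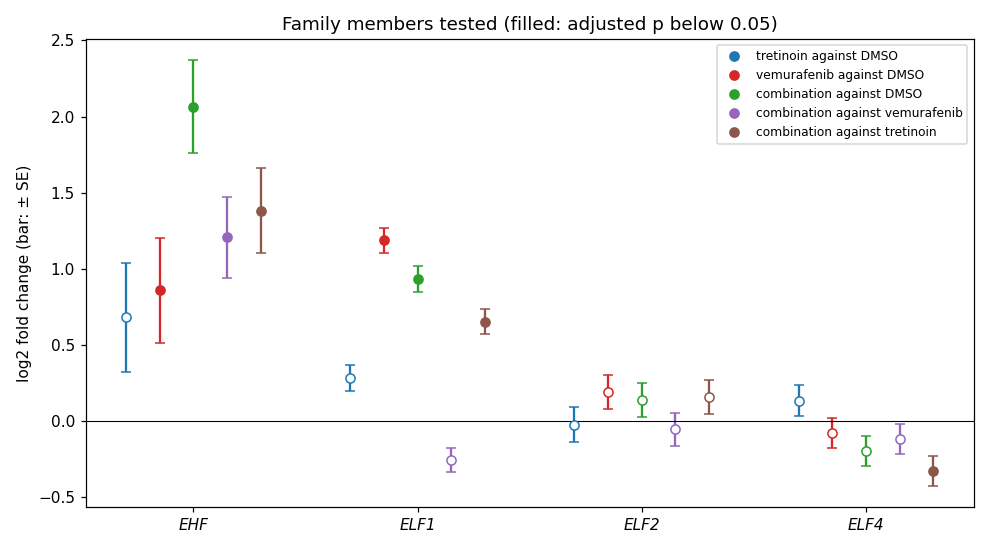
Log2 fold changes (points) with their SE (bars) of the 4 tested members other than ELF3, in 5 comparisons shown by colour; filled points had an adjusted p below 0.05. EHF and ELF1 rose with vemurafenib and with the combination, and ELF1 lay below 0 when the combination was set against vemurafenib.

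Counted over the 4 tested members other than ELF3, none passed with tretinoin against DMSO, where 3.48% of all genes tested rose and 2.2% fell; 1 of the 4 had an unadjusted p below 0.05 by edgeR, and DESeq2 called none. EHF and ELF1 rose with vemurafenib against DMSO (2 of 4, none fell), where 26.4% of all genes rose and 26.3% fell, and with the combination against DMSO (2 of 4, none fell), where 27.1% rose and 26.5% fell. Only EHF passed for the combination against vemurafenib (1 of 4), a comparison in which 2.27% of all genes rose and 2.2% fell. For the combination against tretinoin, EHF and ELF1 rose and ELF4 fell, against 24.1% higher and 25% lower of all genes. For the difference between the tretinoin effects, ELF1 was 1 of 4, and 0.806% of all genes passed in either direction. With 4 genes, these counts say nothing of the family as such, and in the vemurafenib comparisons a call is frequent for any gene. The median log2 fold change of the 4 members was 0.52 with vemurafenib and 0.53 with the combination, against 0.02 and 0.03 over all genes.

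Levels were compared between members per kb of exon. In DMSO the order was ELF4 (5.7 ± 0.568 CPM per kb, SD), ELF1 (5.59 ± 0.457), ELF2 (2.73 ± 0.482), EHF (0.186 ± 0.0383) and ELF3 (0.00626 ± 0.0108). ELF4 and ELF1 did not differ beyond their spread, and the epithelial-type factors stood far below the others. In vemurafenib ELF1 led with 12.8 ± 0.598 CPM per kb, followed by ELF4 with 5.42 ± 0.188, ELF2 with 3.12 ± 0.261, EHF with 0.347 ± 0.125 and ELF3 with 0.272 ± 0.0449, and the last pair overlapped. In the combination ELF3 stood at 2.48 ± 0.34 CPM per kb, above EHF (0.791 ± 0.192) and next to ELF2 (3 ± 0.286), whose samples overlapped those of ELF3. With the longest transcript as length, ELF3 was at 3.58 and ELF2 at 6.41 CPM per kb in the combination, so the nearness of these levels depends on the length used.

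ELF3 shares its locus with other transcripts. The gene (ENSG00000163435.15) spans chr1:202007945-202017188 (GRCh38) on the plus strand, and the antisense gene ELF3-AS1 starts 124 bases upstream of the ELF3 RefSeq start, at position 202010463, on the minus strand. Exons of other genes, ELF3-AS1 and AL691482.3, covered 18.5% of the 7191 exon bases of ELF3. The counting ignored strand and discarded fragments that fit both genes, so ELF3 and ELF3-AS1 counts are uncertain in the shared stretches. ELF3-AS1 summed to 1 count in DMSO, 5 in tretinoin, 23 in vemurafenib and 32 in the combination. It rose with vemurafenib (3.92 ± 1.01, adjusted p = 0.0034) and with the combination (4.28 ± 0.95, adjusted p = 0.001) against DMSO. ELF3-AS1 passed the count filter through vemurafenib and combination samples alone, so these p-values are no separate support for its rise. Between the combination and vemurafenib it differed by 0.35 ± 0.51 (adjusted p = 0.86), and the ratio of the summed counts was 1.28 with a counting interval of 0.724 to 2.28. For ELF1, 3.85% of the exon bases were shared with WBP4, and the other members shared none.

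Of the 9 protein-coding genes that start within 200 kb of the ELF3 start, 8 were tested, and most did not follow ELF3 when tretinoin was added to vemurafenib. IPO9, an importin 179 kb upstream, TIMM17A, a subunit of the mitochondrial import machinery, and the aminopeptidase RNPEP, 25.6 kb upstream and nearest to ELF3, differed by 0.01 ± 0.08, 0.03 ± 0.08 and 0.10 ± 0.07 on the log2 scale between the combination and vemurafenib. GPR37L1, a glial receptor gene 115 kb downstream, was the only neighbour that passed there (2.62 ± 0.50, adjusted p = 0.0034). In that comparison 2.27% of all genes rose and 2.2% fell. Its counts were 0, 1 and 0 in DMSO, 2, 0 and 2 in tretinoin, 8, 3 and 1 in vemurafenib and 18, 31 and 34 in the combination. The combination samples lay above all others, and the combination was 6.35 times vemurafenib with a counting interval of 3.45 to 12.8. GPR37L1 passed the count filter through its combination samples alone. Its p-value here and this separation are therefore no separate support for the rise. Against DMSO, 4 neighbours rose with vemurafenib (SHISA4 0.95 ± 0.09, the smooth muscle leiomodin LMOD1 3.05 ± 0.68, PTPN7 2.77 ± 0.52 and GPR37L1) and TIMM17A fell (-0.62 ± 0.08), in a comparison where 26.4% of all genes rose and 26.3% fell. LMOD1 passed the count filter through vemurafenib and combination samples alone, so its call is no separate support for its rise. With total-count scaling 6 rose, IPO9 and RNPEP being the additional genes, and 1 fell. The GPR37L1 call with vemurafenib was lost with DESeq2 and without DMSO replicate 1, DMSO replicate 3 or vemurafenib replicate 1. PTPN7 encodes a phosphatase of blood cells that acts on MAP kinases. It was the 1 neighbour that rose with tretinoin alone (2.43 ± 0.55, adjusted p = 0.014), where 3.48% of all genes rose and 2.2% fell. PTPN7 passed the count filter through drug-treated samples alone, so its calls against DMSO are no separate support for its rise. Its combination level was 1.64 times that with vemurafenib (counting interval 1.2 to 2.25), which did not pass (0.70 ± 0.32, adjusted p = 0.33). With the combination against DMSO, 5 neighbours rose and 1 fell, where 27.1% of all genes rose and 26.5% fell. LGR6 had 33 counts in all and was not tested.

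**Figure D3:**
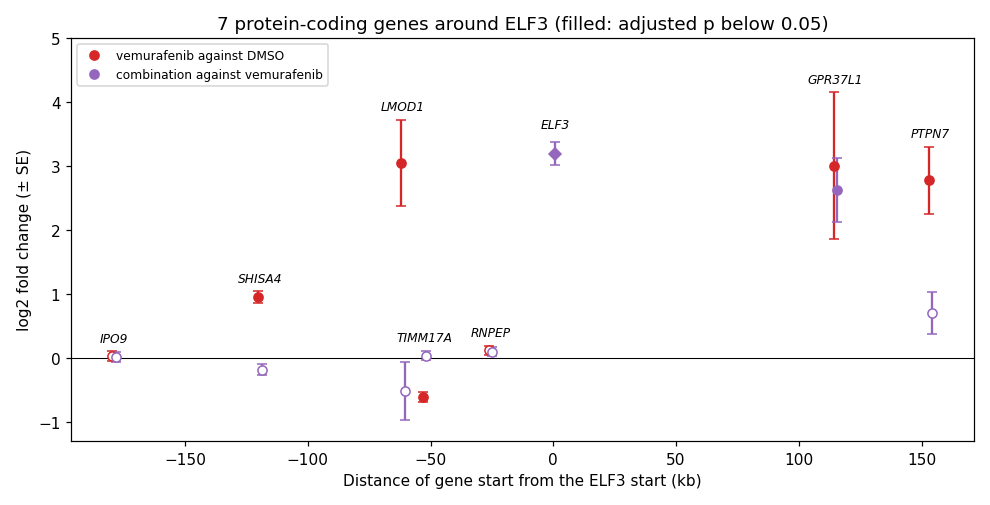
Log2 fold change ± SE of 7 tested protein-coding neighbours against the distance of their start from the ELF3 start in kb, for vemurafenib against DMSO and the combination against vemurafenib; filled circles had an adjusted p below 0.05, and the diamond is ELF3, for which no test was made. ELF3 at 3.19 and GPR37L1 at 2.62 stand above the other genes in the combination against vemurafenib.

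Of 22 other ETS genes, 15 were tested. With vemurafenib 10 fell and 1 rose against DMSO, beside 26.3% lower and 26.4% higher over all genes, and with total-count scaling 7 fell and 3 rose. The median log2 fold change was -0.35 (0.02 over all genes), and the summed level went from 962 to 1031 CPM in DMSO to 568 to 585 CPM. ETV5 (-4.67 ± 0.14) and ETV4 (-2.76 ± 0.08), PEA3 factors that are transcriptional readouts of ERK, fell most, from 67.2 to 76.5 CPM in DMSO to 2.7 to 2.94 CPM in the case of ETV5. ERG, an endothelial factor, rose by 2.09 ± 0.61 from 0 to 0.422 CPM in DMSO to 0.541 to 1.3 CPM. ERG passed the count filter through drug-treated samples alone, so its calls against DMSO are no separate support for its rise. With tretinoin ETV6, a repressor needed in blood stem cells, rose by 0.40 ± 0.10 (adjusted p = 0.028) and ERF, an ERK-controlled repressor, fell (-0.24 ± 0.06, adjusted p = 0.027). Neither call was stable. ETV6 did not pass without tretinoin replicate 1, which stood apart (0.33, adjusted p = 0.082), without DMSO replicate 1 or 2, with only these groups fitted or with the replicate number as a block (adjusted p = 0.053). ERF did not pass in 5 of the 12 fits with a sample left out, with total-count scaling (-0.16, adjusted p = 0.13), without a filter, with the block (adjusted p = 0.059) or with only these groups fitted. In the combination against vemurafenib, ERF was again lower (-0.44 ± 0.06, adjusted p = 0.00013) and ETS2 was higher (0.61 ± 0.10, adjusted p = 0.0013). With the combination against DMSO, 2 rose and 11 fell, where 27.1% of all genes rose and 26.5% fell.

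Of 16 other transcription factors of epithelia, 8 were tested. GRHL2, a regulator of epithelial junction genes, had at most 4 counts in any sample and GRHL3 at most 9. With vemurafenib 2 of the 8 rose, close to the 26.4% of all genes, and 4 fell, where 26.3% of all genes did (median -0.34), the falls being those of TFAP2C (-2.68 ± 0.07), KLF4 (-1.72 ± 0.10), GATA3 (-1.16 ± 0.20) and FOXA1 (-0.69 ± 0.24). GATA3 and FOXA1, pioneer factors of luminal epithelia, rose when tretinoin was added to vemurafenib, by 1.35 ± 0.19 (adjusted p = 0.0002) and 1.25 ± 0.22 (adjusted p = 0.0017). GATA3 was at 2.51 to 3.24 CPM in DMSO, 1.16 to 1.44 in vemurafenib and 2.97 to 3.58 in the combination, so the combination samples lay within or just above the range of DMSO. TFAP2C fell with tretinoin alone (-0.45 ± 0.06, adjusted p = 0.00026). Its fall in the combination against vemurafenib (-0.26 ± 0.07, adjusted p = 0.045) was lost in 9 of the 12 fits with a sample left out. In that comparison 2 rose and 1 fell, beside 2.27% higher and 2.2% lower over all genes. In the combination against DMSO 2 rose and 3 fell, beside 27.1% higher and 26.5% lower.

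The genes listed as ELF3 targets were drawn up from general knowledge and from other tissues. Of 17 genes 8 were tested, and none of the cornified envelope genes SPRR1A, SPRR1B, SPRR2A and SPRR3 was among them. With tretinoin 3 rose and none fell, where 3.48% of all genes rose and 2.2% fell (median 0.41, 0.01 over all genes): LCN2, an iron-scavenging lipocalin, by 0.80 ± 0.18 (adjusted p = 0.013), the TGF-beta receptor gene TGFBR2 by 0.47 ± 0.09 (adjusted p = 0.0051), and ANGPT1, a vascular growth factor, by 0.38 ± 0.11 (adjusted p = 0.046). The ANGPT1 call was lost in 11 of the 12 fits with a sample left out, tretinoin replicate 1 among them (0.29, adjusted p = 0.15), and the LCN2 call in 2, without DMSO replicate 3 or tretinoin replicate 2. With vemurafenib 1 of the 8, ANGPT1, rose (0.52 ± 0.10) and 3 fell, against 26.4% higher and 26.3% lower of all genes: the prostaglandin synthase gene PTGS2 (-2.01 ± 0.46), the collagenase gene MMP1 (-1.18 ± 0.12) and TGFBR2 (-0.73 ± 0.09). With the combination against DMSO 3 rose and 3 fell, where 27.1% of all genes rose and 26.5% fell. When the combination was set against vemurafenib, ELF3 differed by 9.13 times, and of all genes 2.27% rose and 2.2% fell. KRT8, a keratin of simple epithelia, was the 1 gene of 8 that passed there (0.46 ± 0.09, adjusted p = 0.0057), and it did not pass without vemurafenib replicate 1 or 2. KRT8 was at 48.9, 49.6 and 56.2 CPM in vemurafenib and 72.2, 74 and 65.7 CPM in the combination.

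CDH1, which encodes E-cadherin, had at most 8 counts in any sample and EPCAM at most 7, and neither was tested. Of the 25 structural genes of epithelia 16 were tested. With vemurafenib 5 rose and 5 fell (median 0.27), shares near the 26.4% and 26.3% of all genes, and with total-count scaling 7 rose and 5 fell. ESRP1, a splicing regulator of epithelial cells, rose by 3.68 ± 0.59 from 0 to 0.135 CPM to 0.781 to 0.914 CPM, while CLDN1 (-2.29 ± 0.24) and CLDN4, which encode tight junction claudins, and KRT18 (-1.85 ± 0.11), the partner of KRT8, fell. ESRP1 passed the count filter through vemurafenib and combination samples alone, so its call is no separate support for its rise. CLDN4 rose with tretinoin alone (0.63 ± 0.09, adjusted p = 0.0002) and fell with vemurafenib (-1.54 ± 0.10). KRT18 was higher in the combination than with vemurafenib (0.54 ± 0.11, adjusted p = 0.0055), at 308, 275 and 270 CPM against 184, 187 and 214, and remained below the 631 to 801 CPM of DMSO. PKP3, a desmosomal plakophilin gene, was lower in the combination than with vemurafenib (-0.30 ± 0.08, adjusted p = 0.042), a call lost in 8 of the 12 fits with a sample left out. With the combination against DMSO 4 rose and 4 fell (6 and 4 with total-count scaling), where 27.1% of all genes rose and 26.5% fell.

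**Figure D4:**
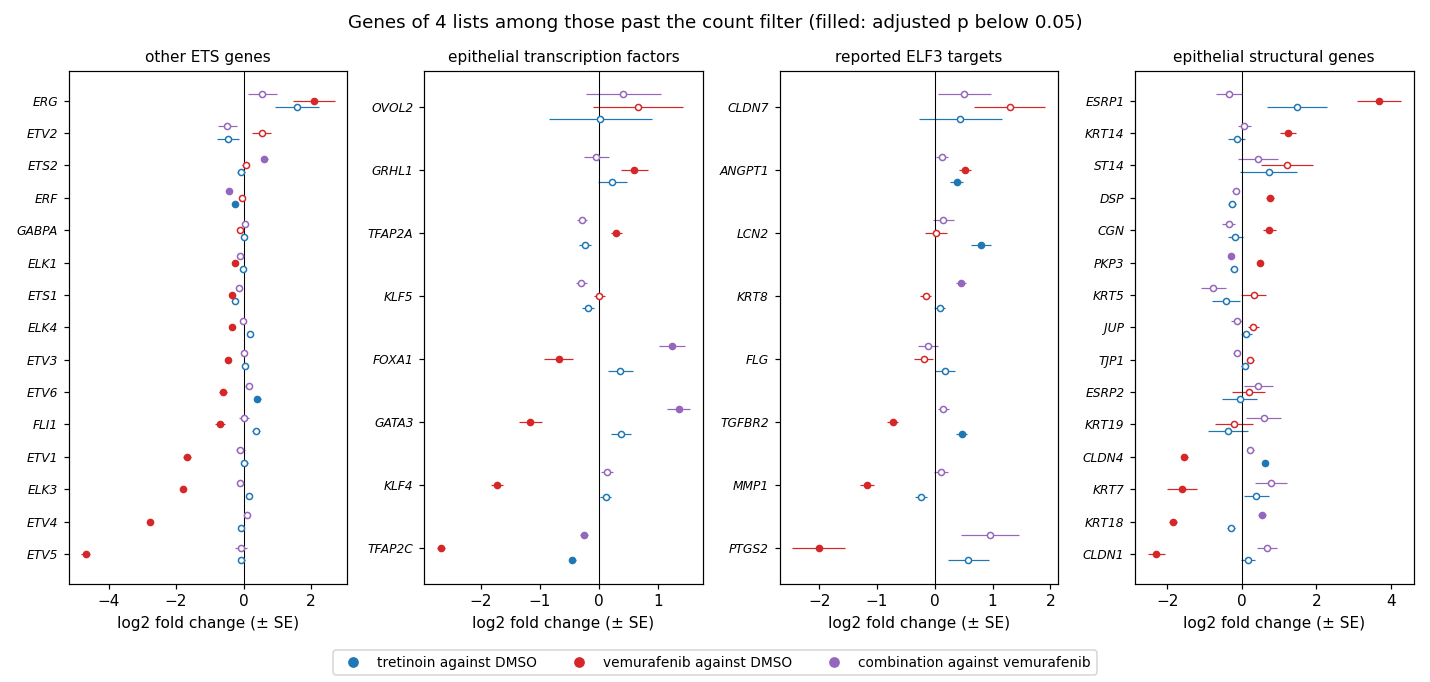
Log2 fold changes ± SE of genes in 4 lists that passed the count filter, those not reported here left out, ordered by their change with vemurafenib (red), with tretinoin against DMSO in blue and the combination against vemurafenib in purple; filled points had an adjusted p below 0.05. The vemurafenib changes span both directions in each list, and GATA3 at 1.35 and FOXA1 at 1.25 lie farthest to the right for the combination against vemurafenib.

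The genes whose pattern was most like that of ELF3 were found by Pearson's r of log2 CPM over the 12 samples, among 16704 genes. The samples fall into 4 groups and share their libraries and scaling, so r describes the group pattern. FYB1, an adaptor protein gene of blood cells, had the highest r of 0.980, followed by VAT1 (0.972), MARCKS (0.971), a substrate of protein kinase C, STARD13 (0.970) and the kinase gene AATK (0.970). FYB1 rose from 0.949 ± 0.289 CPM in DMSO to 2.33 ± 0.471 in tretinoin, 4.45 ± 0.708 in vemurafenib and 14.5 ± 1.77 in the combination (SD, n = 3). VAT1 went from 303 ± 18.2 to 460 ± 27.6 CPM between DMSO and the combination, so a like pattern does not mean a like size of change. EHF had an r of 0.890, ELF1 of 0.727, ELF2 of 0.348 and ELF4 of -0.500 with ELF3. The choice rested on the measure: by the distance between the 3 log2 fold changes against DMSO the nearest genes were CPA3, FMOD, AC103770.1, HIST1H4L and SMIM24, and 0 of 5 were shared with those by r.

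**Figure D5:**
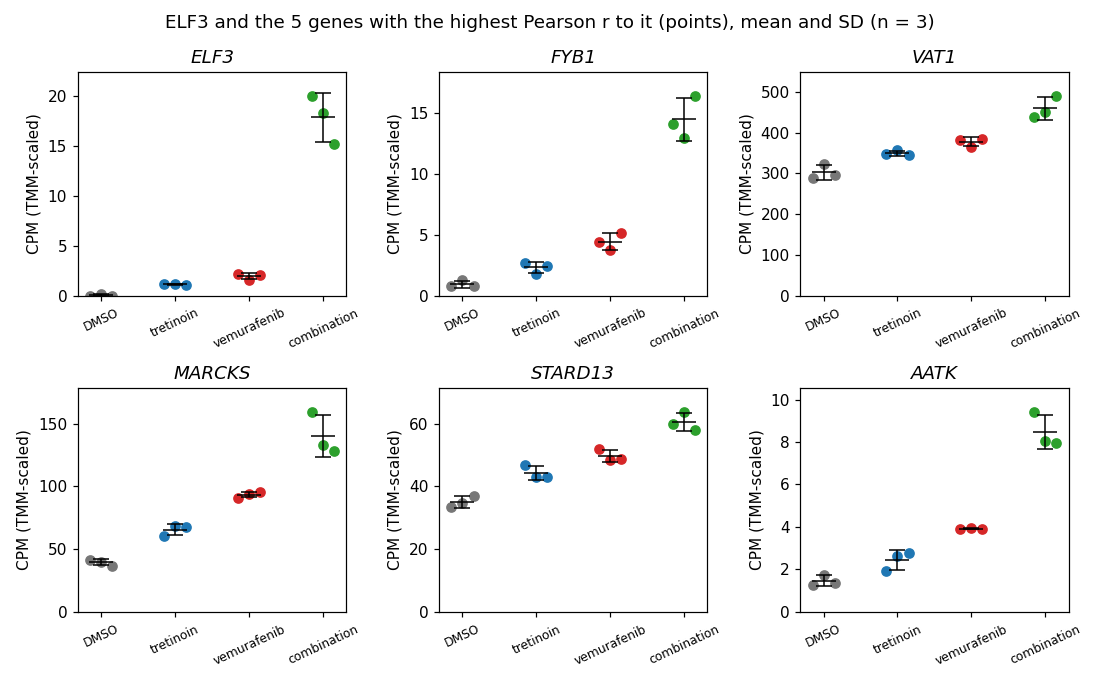
TMM-scaled CPM by sample (points) with the mean ± SD (bar, n = 3) for ELF3 and the 5 genes with the highest Pearson r to it, each on its own axis from 0. In every panel the order of the group means is DMSO, tretinoin, vemurafenib and combination, with ELF3 at 17.9 CPM and FYB1 at 14.5 CPM in the combination.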

How the data were processed

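RNA of 12 A375 samples was polyA-selected, made into strand-specific libraries and sequenced as paired 150-bp reads. The authors aligned reads with STAR 2.5.3a to GRCh38.p10 and deposited raw fragment counts per GENCODE 27 gene, counted in union mode with strand ignored. Symbols, positions and exon lengths were taken from GENCODE 29, which matched 58084 of 58347 genes. Groups followed the sample labels. Here, genes passing filterByExpr were scaled by TMM and fitted in 1 quasi-likelihood model of all 12 samples with a term per group and no block (edgeR 4.0.16, R 4.3.3). P-values were adjusted by Benjamini-Hochberg within each comparison over all 16740 genes, with a threshold of 0.05. The difference between tretinoin effects is (combination - vemurafenib) - (tretinoin - DMSO). SE is the log2 fold change divided by the square root of F. CPM is the count scaled to library size by TMM, and genes most like ELF3 used log2 CPM with a prior count of 2. Shared exon sequence was searched with blastn 2.17.0, and DESeq2 1.42.0 served as an alternative.

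The members and gene lists were chosen with earlier results of these data known. Named from each list were the 3 largest called changes with tretinoin, with vemurafenib and in the combination against vemurafenib, with the genes at the ELF3 locus, the 5 most like ELF3, drug check genes and leading markers; GRHL2, GRHL3, CDH1, EPCAM, the SPRR genes, SOX10, TYR and CD68 were added after their values were seen. Alternatives were DESeq2's size factors, total-count scaling, testing genes without a filter, a minimum of 10 counts throughout, DESeq2's Wald test, only the groups compared, a replicate block and each sample left out. No protein sequence was used here, and values of a few genes in the lists and near ELF3 are not reported here. Total counts per sample of 13510235 to 21534377 set the precision, and counting intervals and floors (3 counts) cover counting error only.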

Additional observations from a re-analysis of the deposited data

Results flagged for a closer look

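3 genes differed between the tretinoin effect in vemurafenib-treated cells and that in vehicle-treated cells, by the test of that difference itself in edgeR's quasi-likelihood model. They were found among the 4 tested members and the tested genes of 4 lists. These were 15 other ETS genes, 8 epithelial factors, 8 ELF3 targets and 16 structural genes. Over all 16740 genes, 0.806% passed in either direction. ELF1 had a difference of -0.54 ± 0.12 on the log2 scale (SE, adjusted p = 0.04), with 0.28 for tretinoin against DMSO and -0.25 for the combination against vemurafenib. The ELF1 call held in only 5 of the 12 fits with 1 sample left out and was lost with the replicate block (adjusted p = 0.09). ETS2, an ETS factor that ERK phosphorylates, had a difference of 0.68 ± 0.15 (adjusted p = 0.042), from -0.07 and 0.61. Its call was lost in 9 of the 12 fits with 1 sample left out, with total-count scaling (adjusted p = 0.073) and with the replicate block (adjusted p = 0.065). KRT18 had a difference of 0.84 ± 0.16 (adjusted p = 0.012), from -0.30 and 0.54, and its call was lost without DMSO replicate 2, vemurafenib replicate 1 or vemurafenib replicate 2.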

How the results depend on the processing

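The ELF3 rise in the combination over each single drug kept its direction under every alternative run, which describes a gene picked for its rise. The calls of EHF and ELF1 with the combination against DMSO and against tretinoin and of ELF1 with vemurafenib held under every alternative as well. Calls of family members other than ELF3 changed in number as follows. With tretinoin against DMSO, total-count scaling gave 1 call in place of 0. With vemurafenib against DMSO, DESeq2 gave 1, the fit with the replicate number as a block gave 1 and total-count scaling gave 3, in place of 2. With the combination, total-count scaling gave 3 in place of 2 against DMSO and 2 in place of 3 against tretinoin. In the combination against vemurafenib, fitting only the groups compared gave 2, and for the difference between tretinoin effects the replicate block gave 0, each in place of 1. With 1 sample left out, these counts went from 0 to 1 with tretinoin, from 1 to 2 with vemurafenib, from 2 to 3 with the combination against DMSO and against tretinoin, from 0 to 2 against vemurafenib and from 0 to 1 for the difference. The other alternatives gave the reported counts.

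In the lists, tretinoin against DMSO gave for other ETS genes 1 call with total-count scaling, 0 with the replicate block and 0 with only the groups compared (2 in the report; 0 to 2 with a sample left out), for ELF3 targets 1 with only the groups compared (3 in the report; 1 to 3), and for structural genes 1 with total-count scaling, 1 with the block and 1 with only the groups compared (2 in the report; 1 to 2). The epithelial factors had 3 calls in the combination against DMSO without a filter and 3 with DESeq2 (5 in the report; 3 to 5). In the combination against vemurafenib, structural genes had 1 call with the block and 4 with only the groups compared (2 in the report; 1 to 3), and ELF3 targets 0 to 1 with a sample left out. Over all genes, calls with tretinoin were 1540 without a filter and 305 with only the groups compared (951 in the report; 379 to 1367), those of the combination against vemurafenib 1269 with only the groups compared (749 in the report; 460 to 1172), and those of the difference between tretinoin effects 610 without a filter, 258 with DESeq2 and 75 with the block (135 in the report; 60 to 265). The upper ends of 1172 and 265 were those without tretinoin replicate 1, which stood apart from its group. The cause of these changes was not tested.

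The replicate number did not pair the samples: deviations from the group means correlated by -0.143 to 0.087 over 18 same-numbered pairs, and 0 of the 12 samples lay closest to a sample of their own number. Values near 0 changed sign, none of them past the threshold. ELF2 with tretinoin went to 0.048 under total-count scaling and from -0.114 to 0.136 with a sample left out, ELF2 in the combination against vemurafenib from -0.117 to 0.0208, the ELF2 difference between tretinoin effects from -0.192 to 0.0581, and ELF4 with vemurafenib to 0.118 under total-count scaling and from -0.133 to 0.0046 with a sample left out. Of the 5 genes most like ELF3 by Pearson r, 0 were among the 5 by Spearman correlation and 0 among the 5 by distance. With the longest transcript as length, levels in the combination were 3.58 CPM per kb for ELF3, 1.1 for EHF, 13 for ELF1 and 6.41 for ELF2. Depth limits ELF3 in DMSO (2 counts), ELF5 and ELF3-AS1.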
